A study of Homo sapiens with 6 samples.

Results

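The genes described here are 54 components and regulators of the kinetochore, the spindle checkpoint and the mitotic kinase machinery, measured by RNA sequencing in H1975, a line of human non-small cell lung cancer cells with mutant EGFR. The members were chosen by symbol from a written list, and all 54 were found among the 27216 rows of the table. Parental cells (3 samples, Osi for 0 h) were compared with adapted cells (3 samples, Osi for 72 h), where Osi (osimertinib) is an EGFR tyrosine kinase inhibitor that the labels give at 1000 nM. Both groups were the same line, with the genotype given as WT and the medium as DMEM with serum in the labels. The methods of the study name a different medium, also with serum. Dead cells were rinsed off before RNA was taken, so the adapted samples hold the cells that stayed attached. The deposited columns are named DMSO and OSI. DMSO columns were taken as the 0 h samples and OSI columns as the 72 h samples. The labels do not name DMSO for the 0 h samples, or say for how long it was added, so a DMSO control kept for 72 h is possible. The labels also describe digestion of linear RNA with RNase R, while the methods of the study name total RNA only.

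The kinetochore is the protein assembly that joins each chromosome to the microtubules of the mitotic spindle. Its inner layer sits on centromeric chromatin marked by the histone variant CENP-A, its outer layer binds microtubules, and the spindle checkpoint on it holds back anaphase until all chromosomes are attached. CDK1 with its B-type cyclins drives entry into mitosis, and the anaphase-promoting complex (APC/C) ends it by marking cyclin B and securin for destruction. In cycling cells most of these transcripts accumulate in G2 phase and mitosis and are low in G1, while some subunits are transcribed throughout the cycle.

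Values are log2(FPKM + 1) as deposited, where the unit was taken as FPKM, fragments scaled to transcript length and library. Levels are set side by side between genes on that assumption. On the linear scale the rows of a sample added up to 375342 to 387753, and the sequencing depth is unknown. The mitochondrially encoded genes held 8.07 to 8.66% of this sum in parental and 9.73 to 12.2% in adapted samples. Pearson's r of adapted replicate 1 with the other adapted samples was 0.991, and that between those was 0.996, both taken across genes, which are no replicates. The 6 carcinoma epithelium markers summed to 3316 to 3347 FPKM in parental and 3533 to 3746 FPKM in adapted samples. They did not move together. In log2(FPKM + 1), KRT7 was 9.38 to 9.40 in parental and 10.2 to 10.6 in adapted samples. KRT8 was 9.80 to 9.84 and 9.41 to 9.74, and KRT18 was 9.73 to 9.75 and 8.94 to 9.37. The 5 fibroblast genes summed to 3.04 to 3.16 FPKM in parental and, without overlap, to 7.65 to 9.21 FPKM in adapted samples, and the 3 endothelial genes to 1.13 to 1.86 and 1.42 to 3.47 FPKM. Of the fibroblast genes, COL1A2, DCN and PDGFRB were at 0.11 or below in log2(FPKM + 1) in every sample, and most of the sum was COL1A1. On the same scale the endothelial gene PECAM1 was 1.0 to 1.4 in parental and 0.075 to 0.11 in adapted samples. CDH5 went the other way, from 0.16 to 0.27 in parental to 1.19 to 2.08 in adapted samples. The part of these shifts in the results was not tested. Of the 4 leukocyte genes, PTPRC and CD3E were at or near 0 in all samples, and CD68 made up nearly all of a sum that was 73.8 to 76.3 FPKM in parental and 14.6 to 29.6 FPKM in adapted samples.

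The 54 genes were lower in adapted cells almost throughout. Together they summed to 1685 to 1695 FPKM in the parental samples and to 796, 506 and 494 FPKM in adapted replicates 1, 2 and 3, so that every adapted sample lay below every parental one. All 54 passed the filter on low values, and 49 fell, 0 rose and 5 did not pass the threshold (limma on all 12656 tested rows, adjusted p under 0.05). At an unadjusted p under 0.05, the same fit gave 49 lower and 0 higher. Over all tested rows 26.2% were lower and 30.7% higher by the same rule, 56.9% in all. The median log2 fold change was -1.49 over the 54 genes, against 0.028 over all tested rows. A fall of at least 1 on the log2 scale was seen in 39 members, where 5.18% of all tested rows fell as far. A fall of at least 2 was seen in 6 members (NEK2, NUSAP1, CDK1, CCNB2, BUB1 and HJURP), where 1.07% of all rows did. Which genes are in this list depends on the added 1. With an added 0.1, SGO1, NDC80, NUF2, SPC24 and AURKA also fell by at least 2 (-2.40, -2.24, -2.07, -2.02 and -2.01). The share over all rows was not taken at that setting. In 50 members all adapted values lay below all parental values, which was the case in 30.6% of all tested rows. For a single gene, 3 samples against 3 cannot give a two-sided exact permutation p below 0.1, so the calls rest on the fit across all rows. In bulk RNA, fewer cells in G2 phase and mitosis and less of each transcript per cell cannot be told apart.

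**Figure D1:**
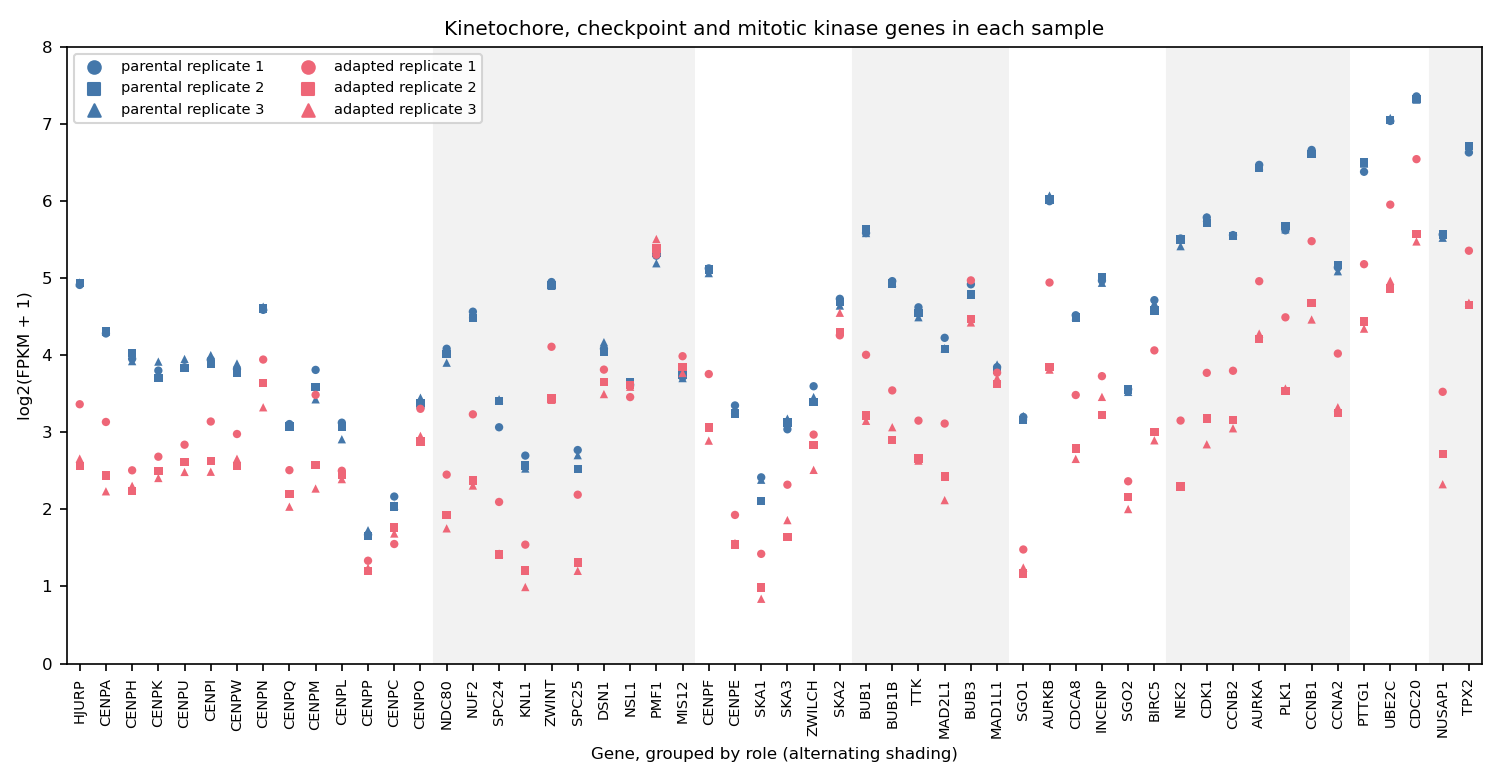
Values of the 54 genes in log2(FPKM + 1) on the y axis, with 1 column per gene and genes grouped by role from left (centromere) to right (spindle assembly), in parental (blue) and adapted (red) samples, with the marker shape giving the replicate number. Blue points lie close together and above the red points in 50 of the 54 genes, and the red circle of adapted replicate 1 is the highest of the adapted values in 50 genes.

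The kinases and cyclins that bring cells into mitosis fell furthest among the larger role groups, with all 7 lower and a median log2 fold change of -1.97. CDK1, the kinase that drives mitotic entry, was 5.79, 5.71 and 5.79 in the parental samples and 3.77, 3.18 and 2.84 in the adapted samples. The groups did not overlap, and the log2 fold change was -2.50 (standard error 0.21, limma, adjusted p = 8.04e-05), or 53.3 against 8.97 FPKM as group means. NEK2, a kinase of centrosome separation, had the largest fall of all 54 genes, from 5.52, 5.50 and 5.42 to 3.15, 2.30 and 2.30 (log2 fold change -2.89, standard error 0.22, limma, adjusted p = 5.4e-05). In linear terms NEK2 in adapted cells was at 12.0% of its parental mean, and adapted replicate 1 was the highest of the adapted samples. CCNB2, a B-type cyclin partner of CDK1, fell by 2.22 on the log2 scale, and CCNB1, its more abundant partner, fell by 1.77. CCNA2, the cyclin of S and G2 phase, moved least in this group, from 5.14, 5.17 and 5.09 to 4.02, 3.25 and 3.33 (log2 fold change -1.60, standard error 0.19, limma, adjusted p = 3.76e-04). AURKA, the kinase of spindle poles, and PLK1, the kinase of mitotic entry and kinetochore attachment, fell by 1.97 and 1.78.

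**Figure D2:**
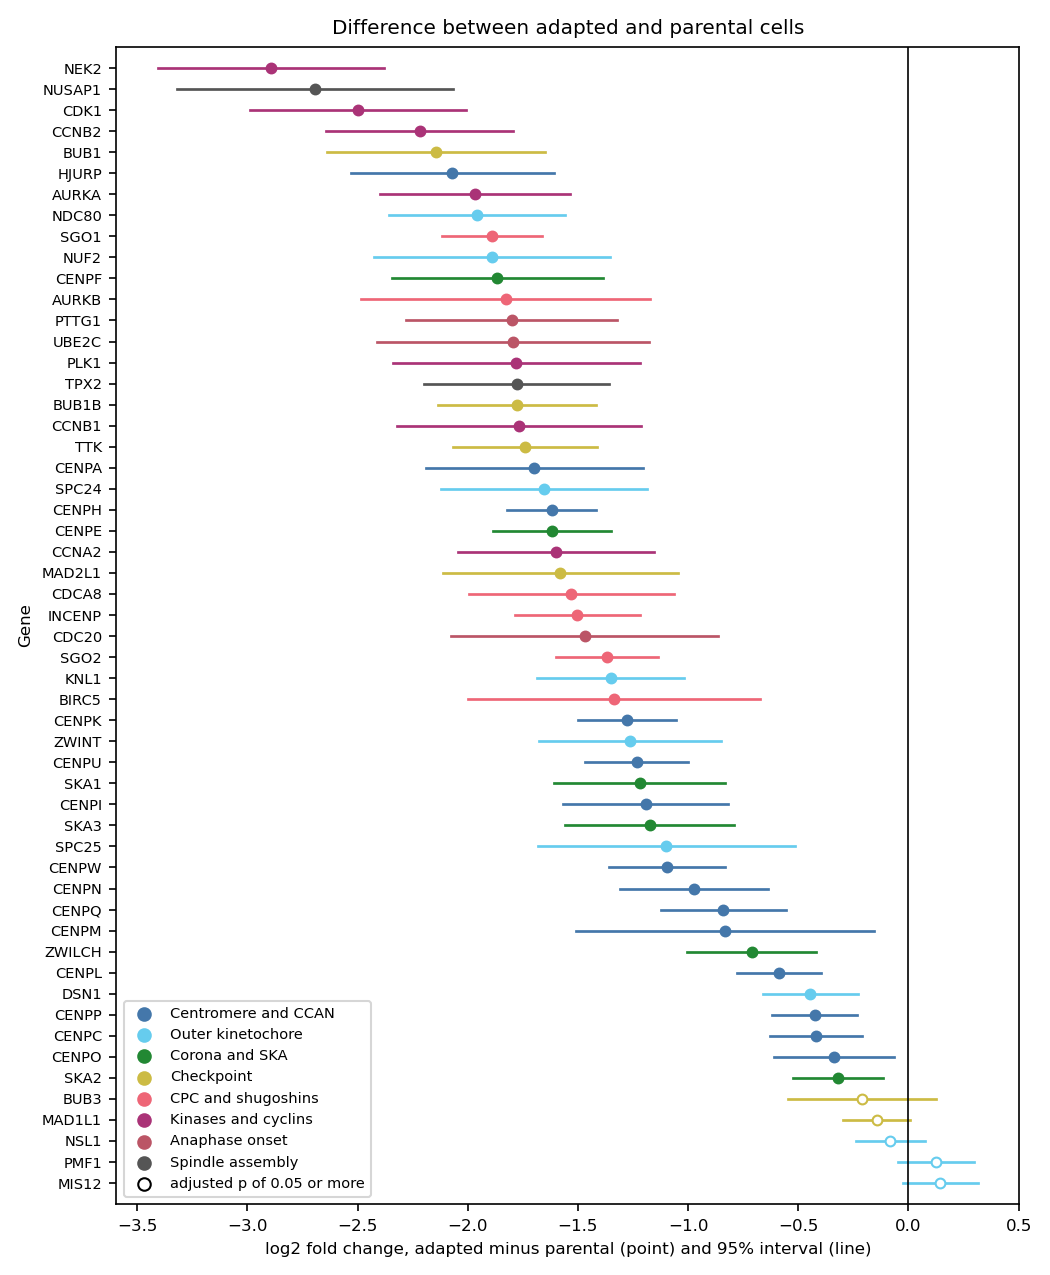
Log2 fold change (adapted minus parental, x axis) of each of the 54 genes (y axis) as a point with its 95% interval from limma as a line, coloured by role, with open points for genes at an adjusted p of 0.05 or more. The open points are BUB3, MAD1L1, NSL1, PMF1 and MIS12, whose intervals include 0, and NEK2 and NUSAP1 lie at the other end at -2.89 and -2.69.

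The 3 genes of the step into anaphase and the 2 of spindle assembly all fell. CDC20, the APC/C activator that the checkpoint restrains, was the highest of the 54 genes in both groups, at 160 FPKM in parental and 60.8 FPKM in adapted cells. Its values were 7.36, 7.32 and 7.32 in parental and 6.54, 5.57 and 5.48 in adapted samples (log2 fold change -1.47, standard error 0.26, limma, adjusted p = 0.00239). Adapted replicate 1 stood between the parental samples and the other adapted samples. PTTG1, the securin that blocks cohesin cleavage, went from 6.38, 6.50 and 6.49 to 5.18, 4.44 and 4.35 (log2 fold change -1.80, standard error 0.20, limma, adjusted p = 3.05e-04). UBE2C, the ubiquitin-conjugating enzyme that starts chains for the APC/C, went from 7.04, 7.05 and 7.08 to 5.95, 4.87 and 4.97 (log2 fold change -1.79, standard error 0.26, limma, adjusted p = 9.95e-04). Neither gene overlapped between groups. The near-identical retrogene copy of PTTG1, PTTG2, was at 0.10 or below in every sample.

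NUSAP1, which bundles and anchors spindle microtubules, fell from 5.57, 5.56 and 5.53 to 3.53, 2.72 and 2.33 (log2 fold change -2.69, standard error 0.27, limma, adjusted p = 1.64e-04), the second largest fall of the 54 genes. TPX2, which activates AURKA on the spindle, was at 6.63, 6.72 and 6.67 in parental and 5.36, 4.65 and 4.68 in adapted samples (log2 fold change -1.78, standard error 0.18, limma, adjusted p = 1.78e-04). The highest adapted value of either gene was more than 1 log2 unit below its lowest parental value.

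The spindle checkpoint genes divided into 4 that fell and 2 that did not pass the threshold. BUB1, the kinase that recruits checkpoint proteins and shugoshins, was 5.59, 5.64 and 5.59 in parental and 4.01, 3.22 and 3.15 in adapted samples (log2 fold change -2.15, standard error 0.21, limma, adjusted p = 1.56e-04). BUB1B, which encodes the inhibitor BubR1 of the APC/C, was 4.96, 4.93 and 4.95 against 3.54, 2.90 and 3.07 (log2 fold change -1.78, standard error 0.15, limma, adjusted p = 9.13e-05). Both were apart between groups by more than 1 log2 unit. TTK, the kinase Mps1 that starts checkpoint signalling, fell by 1.74, and MAD2L1, the Mad2 protein that binds CDC20, fell by 1.58. BUB3, the adaptor that carries BUB1 and BubR1 to the kinetochore, read 4.92, 4.79 and 4.79 in parental and 4.97, 4.47 and 4.43 in adapted samples (log2 fold change -0.21, 95% interval -0.54 to 0.13, limma, adjusted p = 0.244). Adapted replicate 1 was above all parental values, and without it BUB3 was past the threshold (log2 fold change -0.38, adjusted p = 0.00115). MAD1L1, the Mad1 protein that anchors Mad2 at the kinetochore, was 3.85, 3.81 and 3.88 against 3.77, 3.63 and 3.70 (log2 fold change -0.14, 95% interval -0.30 to 0.0074, limma, adjusted p = 0.0925), with all adapted values below all parental ones. Without adapted replicate 1 its log2 fold change was -0.18 (adjusted p = 0.0249). BUB3 in adapted cells was at 87.3% of its parental mean FPKM and MAD1L1 at 89.8%, while the 4 genes that fell were at 21.9 to 31.0%.

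The outer kinetochore is the KMN network, made of KNL1, the MIS12 complex and the NDC80 complex, which holds the microtubule. Its parts moved unequally. All 4 subunits of the NDC80 complex fell, with log2 fold changes of -1.96 to -1.10. NDC80 itself was 4.08, 4.02 and 3.90 in parental and 2.45, 1.93 and 1.75 in adapted samples (log2 fold change -1.96, standard error 0.17, limma, adjusted p = 9.65e-05), and its coiled-coil partner NUF2 was 4.57, 4.48 and 4.54 against 3.23, 2.37 and 2.31 (log2 fold change -1.89, standard error 0.23, limma, adjusted p = 4.08e-04). Both genes were apart between the groups in all samples. KNL1, the scaffold for BUB1 and BubR1, fell by 1.35, and its partner ZWINT fell by 1.26.

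Of the 4 subunits of the MIS12 complex, the bridge from inner to outer kinetochore, DSN1 fell by 0.44 (limma, adjusted p = 0.00483) and the other 3 did not pass the threshold. MIS12 was 3.72, 3.75 and 3.70 in parental and 3.99, 3.85 and 3.77 in adapted samples (log2 fold change 0.15, 95% interval -0.025 to 0.32, limma, adjusted p = 0.124). Every adapted value of MIS12 was above every parental one, which made it the 1 member apart in that direction, where 35.7% of all tested rows were. It passed the threshold once samples were scaled to the same total of all but the mitochondrially encoded genes (log2 fold change 0.19, adjusted p = 0.0428). The span of MIS12 overlaps that of DERL2 in RefSeq, and whether counting used the strand is not stated. NSL1 had the smallest difference of the 54 genes, at 3.62, 3.65 and 3.64 against 3.46, 3.62 and 3.59, the groups only just apart (log2 fold change -0.082, 95% interval -0.24 to 0.075, limma, adjusted p = 0.327). PMF1 read 5.29, 5.33 and 5.19 in parental and 5.30, 5.39 and 5.51 in adapted samples, which overlapped (log2 fold change 0.13, 95% interval -0.046 to 0.30, limma, adjusted p = 0.176). Without adapted replicate 1 it was past the threshold (0.17, adjusted p = 0.0448). The read-through gene PMF1-BGLAP, which shares exons with PMF1, was lower in adapted cells by 0.79 (limma, adjusted p = 0.0238), and how fragments were divided between these 2 rows is not stated. In linear terms the MIS12 complex subunits in adapted cells were at 72.1 to 112% of their parental means and the NDC80 complex subunits at 21.4 to 39.5%. PMF1 moved from rank 14 to rank 2 among the 54 genes by mean FPKM.

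The corona and the SKA complex, which help the kinetochore to hold on to microtubule ends, were lower in all 6 genes. CENPF, a large coiled-coil protein of the corona, was 5.13, 5.11 and 5.07 in parental and 3.76, 3.06 and 2.89 in adapted samples (log2 fold change -1.87, standard error 0.20, limma, adjusted p = 2.52e-04). CENPE, the kinesin that carries chromosomes to the spindle equator, was 3.35, 3.24 and 3.29 against 1.93, 1.55 and 1.56 (log2 fold change -1.62, standard error 0.11, limma, adjusted p = 3.94e-05). In both genes the highest adapted value was more than 1 log2 unit below the lowest parental value. SKA1 and SKA3 fell by 1.22 and 1.17, and ZWILCH, a subunit of the complex that brings dynein to the kinetochore, fell by 0.71. SKA2 moved least, from 4.73, 4.69 and 4.65 to 4.26, 4.31 and 4.55 (log2 fold change -0.32, standard error 0.087, limma, adjusted p = 0.0166). It lost its call without parental replicate 1 (adjusted p = 0.0624), parental replicate 2 (0.0554) or adapted replicate 2 (0.0541). SKA2 was also the member of its complex with the highest level, at 24.8 FPKM in parental and 19.8 FPKM in adapted cells, where SKA1 was at 3.96 and 1.15 FPKM.

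The chromosomal passenger complex, which corrects faulty attachments, and the shugoshins, which protect centromeric cohesion, fell in all 6 genes, with log2 fold changes of -1.89 to -1.34. SGO1, the shugoshin of mitosis, was 3.20, 3.16 and 3.21 in parental and 1.48, 1.17 and 1.25 in adapted samples (log2 fold change -1.89, standard error 0.096, limma, adjusted p = 1.01e-05). AURKB, the kinase of the complex, was 6.0, 6.02 and 6.07 against 4.94, 3.85 and 3.81 (log2 fold change -1.83, standard error 0.28, limma, adjusted p = 0.00124). BIRC5, which encodes the subunit survivin, moved least in this group, from 4.72, 4.58 and 4.68 to 4.06, 3.01 and 2.90 (log2 fold change -1.34, standard error 0.28, limma, adjusted p = 0.00553). For AURKB and BIRC5 adapted replicate 1 was about 1 log2 unit above the other adapted samples, while the adapted SD was 0.16 for SGO1 against 0.64 for both of them. The 4 subunits AURKB, BIRC5, CDCA8 and INCENP in adapted cells were at 29.1 to 40.1% of their parental mean FPKM.

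The centromere genes, which comprise CENP-A, its chaperone HJURP and the constitutive network built on it, all fell, with a smaller median log2 fold change of -1.03. CENPA was 4.28, 4.32 and 4.30 in parental and 3.13, 2.44 and 2.23 in adapted samples (log2 fold change -1.70, standard error 0.21, limma, adjusted p = 4.5e-04). HJURP, which deposits CENP-A at centromeres, was 4.91, 4.93 and 4.94 against 3.36, 2.56 and 2.66 (log2 fold change -2.07, standard error 0.20, limma, adjusted p = 1.32e-04). Both were clearly apart between the groups. Within the network, the subunits CENPH, CENPI, CENPK and CENPM had log2 fold changes of -1.62 to -0.83, and the pair CENPL and CENPN fell by 0.59 and 0.97. The subunits CENPO, CENPP, CENPQ and CENPU had log2 fold changes of -1.23 to -0.34, CENPW, a histone-fold subunit, fell by 1.10, and CENPC, the protein that reads CENP-A chromatin, fell by 0.42. CENPO had the smallest difference, at 3.32, 3.38 and 3.45 in parental and 3.31, 2.88 and 2.95 in adapted samples (log2 fold change -0.34, standard error 0.12, limma, adjusted p = 0.0399), with adapted replicate 1 just below the lowest parental value. CENPO lost its call in 8 of the 19 alternatives and CENPM, the 1 member of the group whose samples overlapped, in 6. The adjusted p of CENPO was 0.0739, 0.0985 and 0.121 without parental replicate 1, 2 or 3, and 0.117 and 0.111 without adapted replicate 2 or 3. That of CENPM was 0.122, 0.0925 and 0.0663 without parental replicate 1, 2 or 3, and 0.126 and 0.117 without adapted replicate 2 or 3. Of the 54 genes, 11 have a span that overlaps another gene of the table in RefSeq, CENPO and CENPP among them, and whether counting used the strand is not stated.

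The adapted samples differed among themselves more than the parental samples did. The SD between replicates was larger in the adapted group for 53 of the 54 genes, with a median of 0.34 against 0.043 in the parental group. Over all tested rows these medians were 0.13 and 0.058, and the adapted SD was larger in 10116 of the 12656 rows. Adapted replicate 1 had the highest adapted value in 47 of the 49 members that fell (95.9%), where it did so in 56.0% of the 3313 tested rows that were lower. The median distance of the 54 genes from their parental means was -1.07 in adapted replicate 1, -1.71 in adapted replicate 2 and -1.70 in adapted replicate 3, and over all tested rows it was 0.034, 0.040 and 0.022. In all 8 role groups adapted replicate 1 was nearest to the parental samples, and it was still below them in each. Without it, the median log2 fold change of the 54 genes was -1.70 and 51 fell, where 3896 of the 12656 tested rows were lower. The mitochondrially encoded genes held 10.9, 9.73 and 12.2% of the summed values in adapted replicates 1, 2 and 3, and their part in this spread was not tested.

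**Figure D3:**
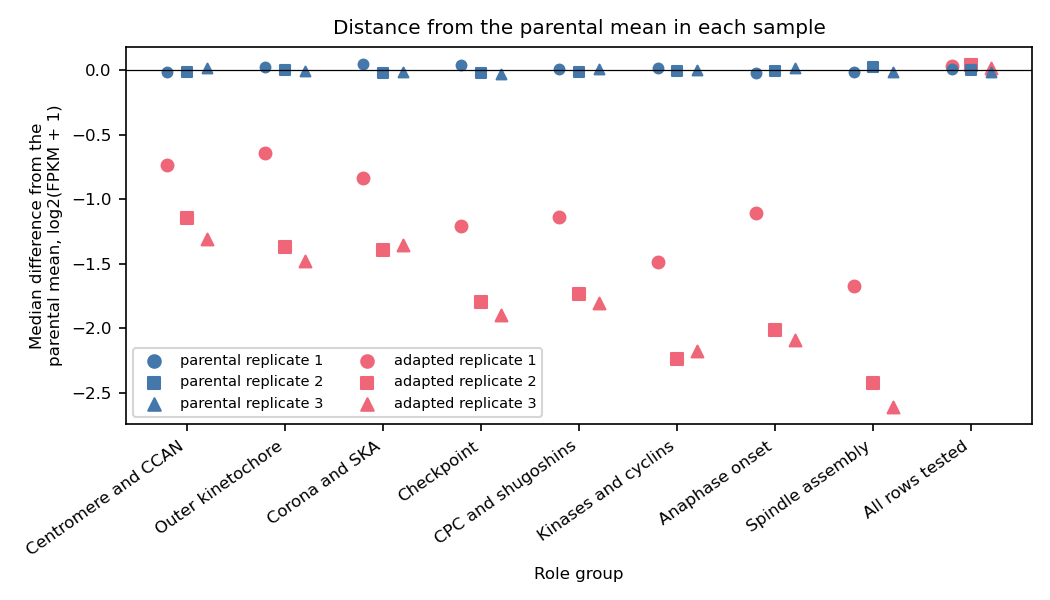
Median distance of the genes of each role group from their parental means, in log2(FPKM + 1), for each parental (blue) and adapted (red) sample, with all tested rows at the right. Adapted replicate 1 (circles) lies between the parental samples and the other adapted samples in each role group, from -0.64 in the outer kinetochore to -1.67 in spindle assembly, while all samples lie near 0 for all tested rows.

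The order of the members by level was partly kept. Across the 54 genes, Spearman's rho between parental and adapted means was 0.795, and that between the parental mean and the log2 fold change was -0.569. These are descriptions across genes that share the same 6 libraries. The parental mean also enters the log2 fold change with a minus sign, which by itself can make the second value negative. The added 1 shrinks the fold of low genes, and with an added 0.1 the second value was -0.408 and the median log2 fold change of the 54 genes was -1.67.

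Other genes of mitosis, written down as 5 lists with 73 genes that are not among the 54, also moved unequally by list. Of the 73, 47 fell, 9 rose and 17 did not pass the threshold (limma, adjusted p under 0.05), with a median log2 fold change of -0.50, where 26.2% of all tested rows were lower and 30.7% higher. Among 16 genes of mitotic entry, exit and cytokinesis 15 fell and 0 rose, with a median of -1.39, led by CDC25C, a phosphatase that activates CDK1, and PRC1, the bundler of the central spindle. CDC25C went from 3.88, 4.05 and 4.04 to 2.47, 1.83 and 1.59 and PRC1 from 5.05, 5.21 and 4.85 to 3.43, 2.90 and 2.91. Both were apart between groups (log2 fold changes -2.03 and -1.96, limma, adjusted p = 1.88e-04 and 7.48e-05). ENSA, also among those that fell (log2 fold change -0.20), kept its call in 15 of the 19 alternatives.

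Among 13 subunits of cohesin and condensin, the rings that hold and compact chromatids, 12 fell and 1 rose, with a median of -1.0. The condensin subunits NCAPH and NCAPG fell by 1.89 and 1.60 on the log2 scale, and the cohesin subunit STAG1 rose by 0.23 (limma, adjusted p = 0.0267). STAG1 lost this call without parental replicate 1, 2 or 3 (adjusted p = 0.0722, 0.113 and 0.0555) or adapted replicate 2 (0.0694), and with the replicate number as a block (0.0645). NCAPH2, which fell by 0.21, kept its call in 16 of the 19 alternatives. The 16 further kinetochore genes had 8 that fell and 2 that rose, with a median of -0.32. OIP5, a subunit of the Mis18 complex that prepares centromeres for CENP-A, fell by 1.62, and HASPIN, the histone kinase that places the passenger complex, fell by 1.47. CENPX and BOD1, which encode a histone-fold DNA-binding protein and a regulator of chromosome orientation, rose by 0.40 and 0.29 (limma, adjusted p = 0.00683 and 0.00232).

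The list nearest to no change was that of the APC/C, with 5 of 16 genes lower, 4 higher and a median of -0.012, shares near the 26.2% and 30.7% over all tested rows. UBE2S, the enzyme that lengthens ubiquitin chains for the APC/C, was 5.76, 5.77 and 5.83 in parental and 5.16, 4.33 and 4.39 in adapted samples (log2 fold change -1.16, limma, adjusted p = 0.0025). The core subunit CDC27 fell by 0.85, while the core subunits ANAPC13 and CDC16 rose by 0.65 and 0.30 (limma, adjusted p = 5.49e-04 and 0.0114). CDC16 lost its call without parental replicate 3 (adjusted p = 0.0511). The APC/C genes among the 54, CDC20 and UBE2C, are its activator and its other chain-building enzyme, and they fell by 1.47 and 1.79.

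Of 12 genes that encode regulators of G2/M transcription, 7 fell and 2 rose, with a median of -0.27. FOXM1 and MYBL2, the activators that act on mitotic promoters, were themselves among the genes that fell. FOXM1 was 5.88, 5.96 and 5.92 in parental and 4.76, 3.78 and 3.90 in adapted samples (log2 fold change -1.77, standard error 0.24, limma, adjusted p = 6.21e-04), and MYBL2 fell by 1.28. The partners that form the core of the DREAM and MMB complexes moved less, with log2 fold changes of 0.17 for LIN37 and 0.0074 for LIN52, neither of them past the threshold, and of -0.77 for LIN9 and -0.49 for LIN54, which were. TFDP2, an E2F dimerization partner, rose by 0.35 and RBBP4, a histone-binding core subunit, rose by 0.24 (limma, adjusted p = 0.00547 and 0.0214). RBBP4 lost its call without parental replicate 1, 2 or 3 (adjusted p = 0.0539, 0.0898 and 0.0621) or adapted replicate 3 (0.0526). Of the genes that fell, E2F4 and TFDP1 (log2 fold changes -0.29 and -0.26) each kept their call in 12 of the 19 alternatives.

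**Figure D4:**
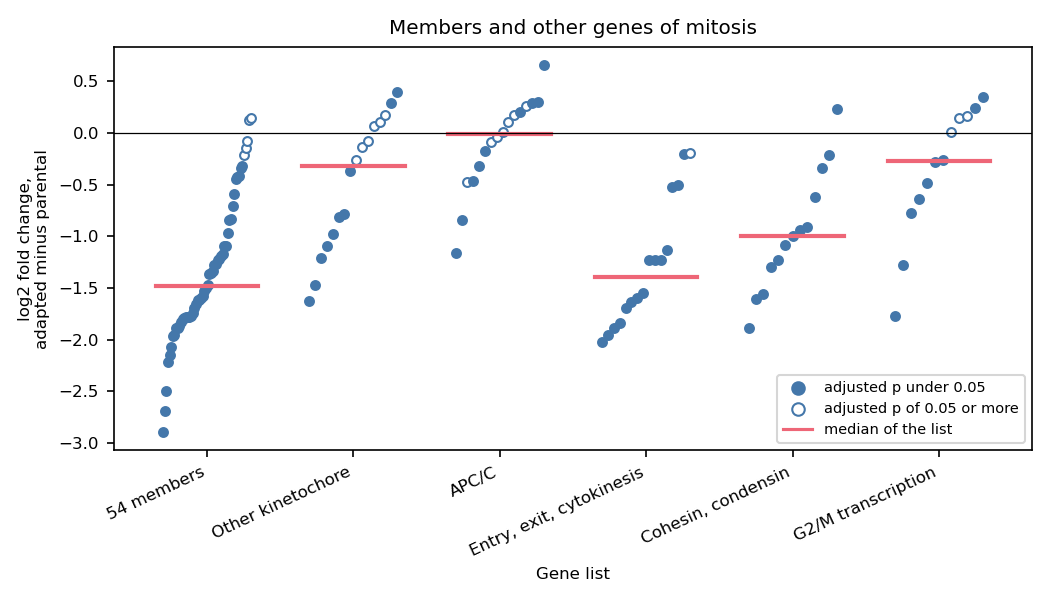
Log2 fold change (adapted minus parental, y axis) of the 54 genes and of the 5 further lists (x axis), with 1 point per gene, filled where the adjusted p was under 0.05 and open otherwise, and the list median as a red line. The medians are -1.49 for the 54 genes and -1.39 for entry, exit and cytokinesis, and -0.012 for the APC/C.

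Promoters of genes expressed in G2 phase and mitosis are known to carry a short element near the transcription start, the cell cycle genes homology region (CHR, with the letters TTTGAA or TTCGAA), often downstream of CCAAT boxes that bind NF-Y. RefSeq promoter windows (GRCh38.p14, 250 bases before to 50 after the start) were given for 44 of the 54 genes, and were searched on both strands. TTTGAA or TTCGAA was found in 24 of 44 genes (54.5%), against 15.3% of the 9334 tested genes with a window and 19.5% of all 27305. CCAAT was found at 2 or more places in 22 of 44 (50%), against 16.3% of the tested genes. A CHR hexamer that begins in the 60 bases before the start was found in 12 of 44 genes (27.3%), against 3.09% of the tested genes. All 12 were among the 32 genes with a window that fell by at least 1 on the log2 scale, and none was among the other 12. Neither limit, 60 bases or a fall of 1, was in the written plan, and this split depends on both. In SPC25, SGO1, SKA3 and NDC80 the hexamer begins 3 bases before the start and runs past it, and these were counted. Hexamers that begin after the start were not counted here. Such hexamers were in CENPN (log2 fold change -0.97) and CENPO (-0.34), and also in genes that fell further, such as BUB1 and NUSAP1. Of the 32, 65.6% held a CHR hexamer anywhere in the window, and of the other 12, 25%. CHR and CCAAT letters can overlap, as in CDCA8, and a match of letters is a description, not a binding site.

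The 120 bases before the start are shown for 4 genes that fell and have a CHR hexamer there, and for 2 genes that did not pass the threshold and have none, chosen after their values were seen. Capitals mark a CHR hexamer or a CCAAT box on either strand, and all sequences run 5′ to 3′ in the direction of the gene.
CCNB2, chr15:59105026-59105145, plus strand: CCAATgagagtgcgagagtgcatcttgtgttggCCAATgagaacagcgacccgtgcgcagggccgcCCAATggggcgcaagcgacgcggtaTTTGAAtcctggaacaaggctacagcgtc
PLK1, chr16:23678769-23678888, plus strand: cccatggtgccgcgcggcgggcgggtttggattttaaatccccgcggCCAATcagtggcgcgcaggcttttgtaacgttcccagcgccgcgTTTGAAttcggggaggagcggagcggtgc
BUB1B, chr15:40160949-40161068, plus strand: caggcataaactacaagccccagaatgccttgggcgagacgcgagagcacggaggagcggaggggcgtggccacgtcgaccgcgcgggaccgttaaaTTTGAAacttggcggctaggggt
CDCA8, chr1:37692396-37692515, plus strand: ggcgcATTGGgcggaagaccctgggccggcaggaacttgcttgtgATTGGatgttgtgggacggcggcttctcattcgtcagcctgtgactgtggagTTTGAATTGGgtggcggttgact
MAD1L1, chr7:2232946-2233065, minus strand: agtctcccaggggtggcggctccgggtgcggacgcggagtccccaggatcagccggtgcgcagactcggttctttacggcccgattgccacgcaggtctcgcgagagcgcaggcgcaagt
NSL1, chr1:212791778-212791897, minus strand: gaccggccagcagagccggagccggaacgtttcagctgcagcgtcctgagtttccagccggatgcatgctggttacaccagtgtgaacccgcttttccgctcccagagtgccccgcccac

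In CCNB2, which fell by 2.22 on the log2 scale, the CHR hexamer begins 29 bases before the start and CCAAT boxes begin 54, 87, 120 and 244 bases before it. PLK1, which fell by 1.78, has its hexamer at the same distance of 29 bases and a CCAAT box at 73 bases. BUB1B, also at -1.78, has the hexamer at 23 bases and no CCAAT box in its window, and CDCA8, at -1.53, has the hexamer at 23 bases with inverted CCAAT boxes at 115, 75 and 18 bases. MAD1L1 and NSL1, at -0.14 and -0.082, show neither element in the whole window. The elements do not sort all genes, since NEK2 and CCNB1 have no CHR hexamer in their windows, and MIS12 and PMF1 have CCAAT boxes.

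**Figure D5:**
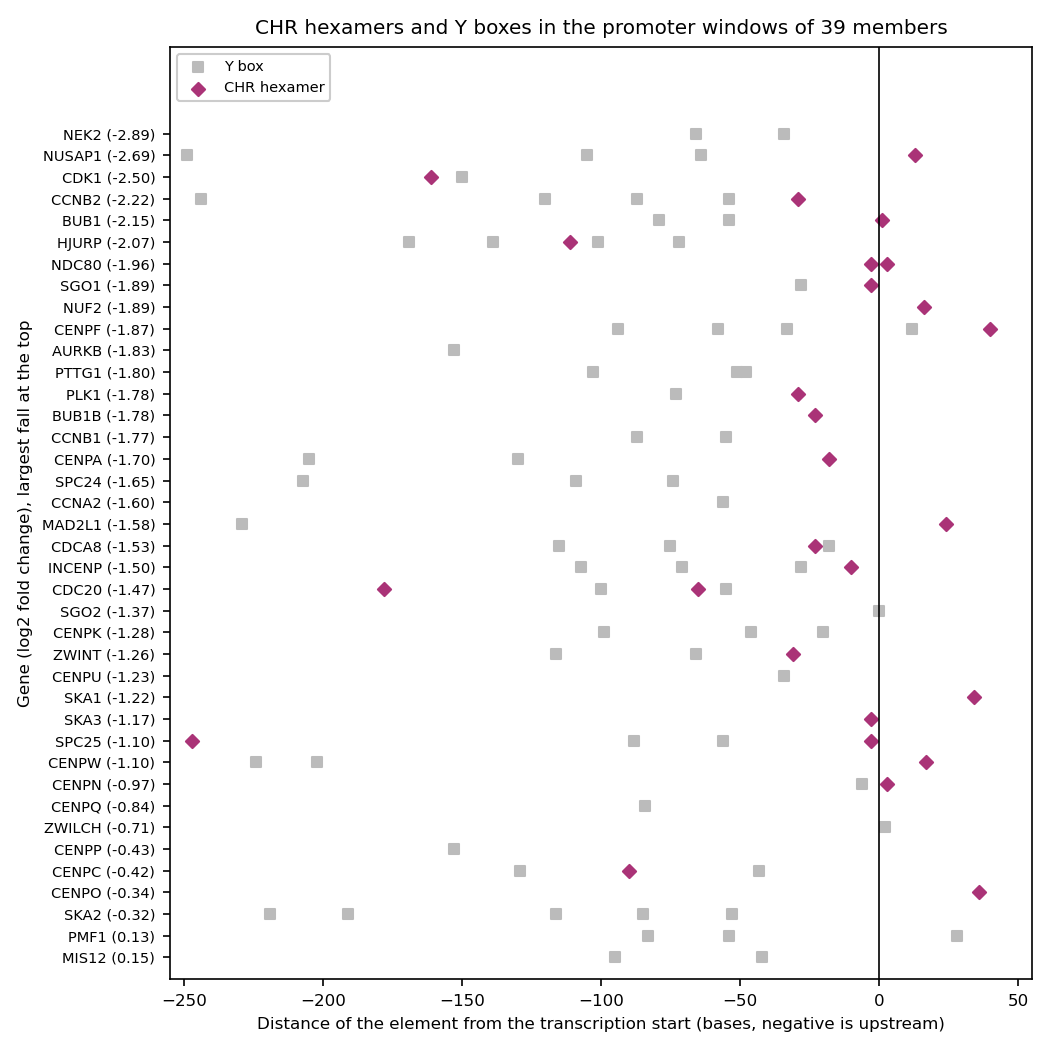
Positions of CHR hexamers (purple diamonds) and CCAAT boxes, drawn as Y boxes (grey squares), relative to the transcription start (x axis, bases) in 39 members with at least 1 element, ordered by log2 fold change (in brackets) with the largest fall at the top. Purple diamonds in the 60 bases left of the start appear only in genes that fell by at least 1 on the log2 scale. For each gene only the window with the lowest start coordinate is drawn. CDK1 therefore shows no diamond there, although its other window has a hexamer 13 bases before the start.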

How the data were processed

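The authors deposited 1 table of RNA-sequencing values on a log2 scale, with 1 column per sample. Columns were matched to samples by replicate number, with DMSO taken as 0 h and OSI as 72 h, which the labels do not state. The unit is not named, and log2(FPKM + 1) was taken from the values. The submitters' processing notes name hg38, STAR, Bowtie2 2.1.0 and edgeR without their roles. The quantifier and annotation are not given in the sources used here. The authors name DESeq2 in their methods, which needs counts that were not used here, so linear models were fitted with limma 3.58.1 under R 4.3.3, with variances moderated along a trend in mean level. Rows with a mean of at least 1 were tested (12656 rows), unpaired, with Benjamini-Hochberg adjustment over all of them and a threshold of 0.05. The fit was tested on simulated data with the same spread in both groups. That test cannot show how the calls hold under the larger spread of the adapted samples. In 147 rows a constant (0.65 or 0.66 in adapted, 0.2 in parental samples) separates the values of a group from the 6-decimal rounding seen elsewhere, and 0 of the 54 genes are among these rows. The labels do not say that replicates were separate cultures, so p-values measure only the spread between samples, which may be technical. The members and lists were chosen with earlier results of these data known. All 54 members may be named. In each of 8 role groups, values per sample are given for the 2 largest falls, the smallest difference and genes not past the threshold. Of the other lists the 2 largest changes past the threshold in each direction were named. LIN37, LIN52, LIN9, LIN54, E2F4, TFDP1, ENSA and NCAPH2 were added after their values were seen. Gene and promoter positions are those of RefSeq (GRCh38.p14). Promoter windows were not used for CENPH, CENPL, CENPM, KNL1, BUB3, TTK, BIRC5, AURKA, UBE2C and TPX2. The 19 alternatives covered the filter, the pseudocount, scaling, the moderation of variances, the rows with constants, rows of unnamed genes, the replicate block and leaving out each sample. Protein motifs were not analysed here.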

Additional observations from a re-analysis of the deposited data

How the results depend on the processing

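Under the 19 alternatives, 46 of the 49 members that fell kept their direction and their side of the threshold wherever they were tested, and the exceptions were CENPO, CENPM and SKA2. No member changed direction. When each of the 6 samples was left out in turn, 46 to 51 members fell. The median log2 fold change of all members was then -1.70 to -1.32. In these 6 fits, 2611 (without parental replicate 2) to 3896 (without adapted replicate 1) of the 12656 tested rows were lower. The number of members that rose was 0 to 1 across these fits (PMF1 without adapted replicate 1), and 1 (MIS12) with samples scaled to the same total of all but the mitochondrially encoded genes, where the median over all tested rows was 0.070 in place of 0.028. Of the other genes of mitosis, 47 fell, 41 to 51 with a sample left out, and 26 with a limit of 1 on the log2 fold change, which was added after the data were seen. Same-numbered samples did not deviate together (correlations of -0.051, -0.031 and -0.020), so the numbers were not taken to pair samples. With the replicate number as a block, 48 members fell, where 3093 of the 12656 tested rows were lower, and CENPO was lost (adjusted p = 0.0582). Without a filter, CENPO (adjusted p = 0.0735) and CENPM (0.0868) were lost, and CENPO under the scaling named above (0.0514). Depth is unknown, so no counting error is given.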
